A study of Mus musculus with 16 samples.

Results

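The AP-1 family of transcription factors was followed in mouse bone-marrow-derived macrophages (BMDM) through the mRNAs of 10 listed genes, Fos, Fosb, Fosl2, Jun, Junb, Jund, Atf3, Batf, Maff and Mafk. The genes were chosen by name, and 10 of 10 were found among the 9614 genes of the table. RNA-seq was performed in 16 libraries from 3 WT and 3 NELF-B KO mice, male C57BL/6 animals aged 8 weeks per the labels. WT mice were LysM-Cre:NELF-B wt/wt and KO mice LysM-Cre:NELF-B fl/fl, so that both genotypes carry LysM-Cre, which acts in myeloid cells, and the KO mice carry a Nelfb gene with a floxed exon. NELF-B, the product of Nelfb, is a subunit of the negative elongation factor that holds RNA polymerase near promoters. Cells were untreated (2 libraries per genotype, mice A and B), treated for 1 hr with 10 ng/ml LPS (3 per genotype, mice A, B and C) or treated for 1 hr with LPS and 100 nM Dex (3 per genotype, the same mice). LPS, from the outer membrane of bacteria, triggers a Toll-like receptor of macrophages, and Dex (dexamethasone) is a synthetic ligand of the glucocorticoid receptor. The letters name mice within a genotype, and a WT and a KO mouse of the same letter are different animals.

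AP-1 is a dimer of proteins that bind DNA through a basic region next to a leucine zipper. Fos proteins (Fos, Fosb, Fosl2) need a partner, usually a Jun protein (Jun, Junb, Jund), while Atf3 and Batf also pair with Jun proteins, and the small Maf proteins Maff and Mafk lack a transactivation domain of their own. Several of these genes are immediate-early genes, which are transcribed within minutes of a stimulus without new protein synthesis, and macrophages use AP-1 together with NF-kB to switch on cytokine and protease genes.

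Expression is given as log2 CPM, the log2 of the reads of a gene scaled to the size of its library by the authors, and a log2 difference of 1 is a 2-fold difference. The libraries held 25030999 to 49730049 reads on genes. 1 library, WT untreated mouse A, was unlike the rest, having r over all genes of 0.83 to 0.909 to them, against 0.924 to 0.993 among the others. Nelfb, the deleted gene, was at 5.59 to 6.21 log2 CPM in the 8 WT libraries and at 3.27 to 4.38 in the 8 KO libraries, without overlap. The 3 libraries of KO mouse B kept the most Nelfb (4.21 to 4.38, against 3.27 to 3.53 in KO mice A and C). Of 9 macrophage marker symbols, 8 were in the table, with a summed level of 8270 to 14300 CPM. The symbol not found, Adgre1, is another name of Emr1, which was in the table. Of the T cell and red cell markers 0 were in the table, and of the B cell, neutrophil and dendritic cell markers 1 each. The 4 fibroblast markers, all in the table, summed to 49.2 to 83.6 CPM in WT untreated and 94.4 to 122 in WT LPS + Dex libraries, and to 81 to 89.7 and 105 to 145 in the KO. Their part in the results below was not tested. In bulk RNA, a change in the share of cells of a type and a change in RNA per cell cannot be told apart.

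The bases before the start sites of 7 of the windows are shown, because these genes moved in the same direction with Dex in 6 of 6 mice (Fos, Jun and Mafk up, Fosb, Junb, Atf3 and Maff down). Of the 3 Maff windows, the second is shown for its match to TGACGTCA. Each is a stretch of 140 bases from the RefSeq promoter table (build GRCm38.p6), written 5′ to 3′ on the gene's strand and ending before any annotated exon. Capitals mark matches to the motifs searched.
Fos (chr12:85473750-85473889, plus strand): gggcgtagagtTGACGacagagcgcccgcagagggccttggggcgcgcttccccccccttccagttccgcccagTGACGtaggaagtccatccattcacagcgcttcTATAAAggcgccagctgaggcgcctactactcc
Jun (chr4:95052223-95052362, minus strand): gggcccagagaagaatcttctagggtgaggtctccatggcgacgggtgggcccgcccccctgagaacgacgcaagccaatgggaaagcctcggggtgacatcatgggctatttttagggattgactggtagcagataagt
Mafk (chr5:139791373-139791512, plus strand): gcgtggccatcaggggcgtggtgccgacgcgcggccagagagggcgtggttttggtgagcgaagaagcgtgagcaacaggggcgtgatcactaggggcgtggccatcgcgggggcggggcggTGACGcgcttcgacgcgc
Fosb (chr7:19310052-19310191, minus strand): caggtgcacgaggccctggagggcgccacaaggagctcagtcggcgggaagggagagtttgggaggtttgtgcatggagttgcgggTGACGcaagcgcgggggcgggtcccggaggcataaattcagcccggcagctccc
Junb (chr8:84978749-84978888, minus strand): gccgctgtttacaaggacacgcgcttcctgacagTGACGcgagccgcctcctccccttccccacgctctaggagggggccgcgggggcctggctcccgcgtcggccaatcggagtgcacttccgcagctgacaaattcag
Atf3 (chr1:191183341-191183480, minus strand): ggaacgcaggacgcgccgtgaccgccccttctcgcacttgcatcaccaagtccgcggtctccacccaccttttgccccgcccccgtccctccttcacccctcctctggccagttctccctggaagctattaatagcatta
Maff, the second of its 3 windows (chr15:79347380-79347519, plus strand): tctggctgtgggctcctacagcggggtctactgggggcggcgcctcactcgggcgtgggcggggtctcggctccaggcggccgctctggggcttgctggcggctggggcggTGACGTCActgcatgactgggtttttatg

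The 10 genes have 12 such windows, and the 250 bases before each start site were searched. The only Jund window has its start site at chr8:70697739, whereas the GENCODE annotation starts Jund at 70698949. The bases directly before that GENCODE start were thus not searched. The cAMP response element TGACGTCA, which Jun-Atf dimers can bind, was found in 1 window, that of Maff, against 1.55% of all 32851 windows of the table. Its shorter part TGACG, searched on both strands after the stretches had been read and contained in every TGACGTCA, was found in 8 of 12 windows, from 7 genes, against 17.8% of all windows. The TPA response element TGANTCA, the classic AP-1 site, was found in 0 of 12 windows (6.75% of all), and the CArG box, the core of the serum response element, in 0 of 12 (1.47% of all). A kB site was found in 4 of 12 windows (3.90% of all), those of Fos, Fosb and Fosl2 and the third Maff window. The kB sites of Fos and Fosb lie outside the stretches shown. In the Fosl2 window and the third Maff window an annotated exon reaches the far end of the 250 bases searched. Their kB sites thus lie past an annotated gene start, and no stretch is shown for either. The TATA box TATAAA, searched on the gene's strand only, was found in 1 of 12 windows, that of Fos (7.59% of all). The Jun stretch held no exact match, but it holds TGACATCA, a sequence close to TGACGTCA that was not among the motifs searched. Near matches were not counted in any window. The match of Atf3 lies closer to its start site than the stretch shown. Sites further from the start were not searched.

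**Figure D1:**
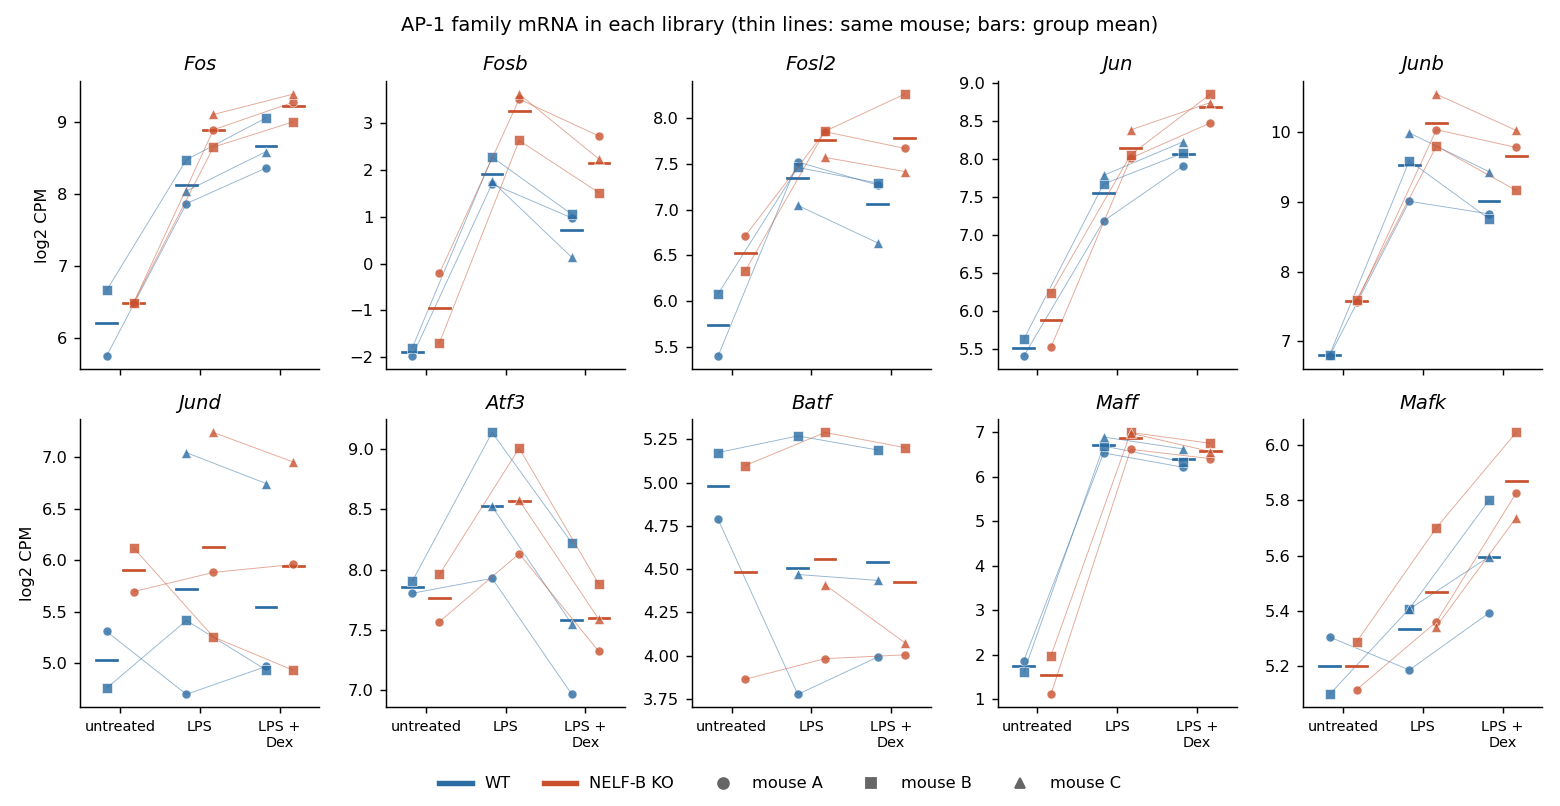
Log2 CPM (y axis, a separate scale for each gene) of the 10 genes in the 16 libraries by treatment (x axis), blue for WT and orange for NELF-B KO, with circles, squares and triangles for mice A, B and C, thin lines joining libraries of the same mouse and bars at group means. Maff went from 1.11 to 1.98 in the 4 untreated libraries to 6.54 to 7.0 in the 6 LPS libraries, while Jund and Batf were set apart more by mouse than by treatment.

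LPS raised 6 of the 10 genes in WT BMDM, Fos, Fosb, Fosl2, Jun, Junb and Maff, and the same 6 passed in the KO. The thresholds were an FDR under 0.1 and more than 1.5-fold in limma, with p-values adjusted over all 9614 genes. Over all genes 6.01% were called higher and 3.14% lower in the WT, and 3.08% higher and 1.24% lower in the KO, and 0 of the 10 genes were called lower. Their median log2 change was 1.76 for WT and 1.75 for KO mice, beside 0.02 and -0.01 for all genes. In the 4 mice with both libraries, 7 of the 10 genes were higher with LPS in 4 of 4 (21.9% of all genes), the 6 called and Atf3. Leaving out any single library kept 6 calls in the WT, and 5 to 6 in the KO, where Fosl2 was lost without the untreated library of mouse B (1.04, adjusted p = 0.327).

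Fos, the founding member of the family, was at 5.76 and 6.67 log2 CPM in the WT untreated libraries and at 6.50 and 6.50 in the KO ones. With LPS it was at 7.87, 8.48 and 8.05 in the WT (mice A, B and C in this order throughout) and at 8.90, 8.66 and 9.11 in the KO mice. Every LPS library was above every untreated library, as for the other genes called with LPS. The share of all genes with this pattern was not counted. Fos rose by 1.92 ± 0.27 (SE, limma, adjusted p = 0.000514) in the WT and by 2.39 ± 0.27 (adjusted p = 7.4e-05) in the KO.

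Fosb, whose full-length product activates transcription and whose short splice form lacks the activating end, was nearly silent before LPS, at -1.97 and -1.79 log2 CPM in the WT and -0.21 and -1.69 in the KO. With LPS it was at 1.70, 2.28 and 1.76 in the WT and at 3.51, 2.63 and 3.62 in the KO. The rise was 3.79 ± 0.49 (13.9-fold, limma, adjusted p = 0.000236) and 4.20 ± 0.49 (18.4-fold, adjusted p = 9.83e-05). Its size depends on the low untreated level, which rests on 5 and 8 reads for the WT, and on the scale of log2(CPM + 1) it was 1.93 for WT and 2.78 for KO mice. Fosb stayed the least abundant of the 10 genes per length of exon in all 6 groups, at 0.613 ± 0.141 CPM per kb (SD, n = 3) in WT LPS libraries.

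Fosl2, which encodes Fra-2, a Fos protein without the strong activating domain of Fos, was at 5.40 and 6.08 log2 CPM in untreated WT and 6.71 and 6.33 in untreated KO libraries. It was at 7.52, 7.46 and 7.05 with LPS in the WT and at 7.85, 7.86 and 7.57 in the KO. These rises of 1.60 ± 0.28 (limma, adjusted p = 0.00301) and 1.24 ± 0.28 (adjusted p = 0.0224) were the smallest of the 6 called.

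Jun, the partner with which Fos forms the classic dimer, was at 5.41 and 5.64 log2 CPM in untreated WT and 5.53 and 6.24 in untreated KO libraries. With LPS it was at 7.18, 7.67 and 7.78 in the WT and 8.01, 8.05 and 8.38 in the KO. Jun thus rose by 2.02 ± 0.22 (limma, adjusted p = 5.67e-05) in the WT and by 2.26 ± 0.22 (adjusted p = 2.04e-05) in the KO. Across the 16 libraries Fos and Jun had r = 0.97, the highest among pairs of the 10 genes, a description over libraries that share mice and treatments.

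Junb, a Jun protein that activates weakly and can oppose Jun, was at 6.79 and 6.80 log2 CPM in untreated WT and 7.56 and 7.59 in untreated KO libraries. It was at 9.01, 9.59 and 9.99 with LPS in the WT and at 10.04, 9.80 and 10.55 in the KO. The rise was 2.73 ± 0.32 (limma, adjusted p = 8.35e-05) and 2.55 ± 0.32 (adjusted p = 0.000162). Per length of exon, Junb went from 48.3 ± 0.379 to 334 ± 109 CPM per kb in the WT (SD, n = 2 and 3) and ranked first of the 10 genes with LPS. Its range (224 to 442) overlapped that of Atf3 (113 to 262), the next in order, whose range in turn overlapped that of Fos (99.5 to 152).

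Jund, the Jun protein most often present in resting cells, was set apart by mouse. In the LPS and LPS + Dex libraries it was at 6.75 to 7.24 log2 CPM in mice C of both genotypes, at 4.69 to 5.96 in mice A and at 4.93 to 5.41 in mice B (4 libraries each). Its LPS change was 0.69 ± 0.78 (limma, adjusted p = 0.562) in the WT and 0.22 ± 0.78 (adjusted p = 1) in the KO, and no untreated library of a mouse C was analysed here. Within mice A and B, 2 of 4 were higher with LPS. A fit with a replicate block for the mouse put the WT value at 0.06. The labels of mice C carry a tag of a kind that those of mice A and B lack. A date-like tag is shared by KO mouse B and the untreated library of WT mouse B, KO mouse A has a date-like tag of its own, and WT mouse A has none. What these tags mark is not given in the sources used here, so that the mouse and whatever they mark cannot be told apart.

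Atf3, a stress-induced factor that often represses inflammatory genes, was high before LPS, at 7.80 and 7.90 log2 CPM in the WT and 7.57 and 7.96 in the KO. Per length of exon it ranked first of the 10 genes in untreated WT libraries, at 107 ± 5.32 CPM per kb (SD, n = 2), and did not overlap Junb. With LPS it was at 7.93, 9.14 and 8.52 in the WT and at 8.13, 9.01 and 8.57 in the KO. It was higher with LPS in 4 of 4 mice, but the change of 0.68 ± 0.38 (limma, adjusted p = 0.248) and 0.81 ± 0.38 (adjusted p = 0.571) did not pass, and without the LPS library of WT mouse B the WT value was 0.37. With the mouse as a replicate block it passed, at 0.69 (adjusted p = 0.0751) in the WT and 0.81 (adjusted p = 0.0904) in the KO.

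Batf, which pairs with Jun proteins and with IRF factors in lymphoid and dendritic cells, was set apart by mouse as Jund was, but with mice B highest. In the LPS and LPS + Dex libraries it was at 5.19 to 5.29 log2 CPM in mice B, at 3.78 to 4.0 in mice A and at 4.08 to 4.47 in mice C. Mice B are also the pair of which libraries of both genotypes share a date-like tag. Its LPS change was -0.48 ± 0.54 (limma, adjusted p = 0.564) in the WT and 0.08 ± 0.54 (adjusted p = 1) in the KO. The only B cell marker in the table, Cd79b, was at 13.9 to 27.0 CPM in WT LPS and 15.1 to 35.0 CPM in KO LPS libraries, and its part in the Batf values was not tested.

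Maff had the largest LPS change of the 10 genes in both genotypes. It was at 1.87 and 1.61 log2 CPM in untreated WT and 1.11 and 1.98 in untreated KO libraries. With LPS it was at 6.54, 6.69 and 6.89 in the WT and 6.62, 7.0 and 6.98 in the KO. The rise was 4.97 ± 0.23 (31.2-fold, limma, adjusted p = 1.06e-08) and 5.32 ± 0.23 (39.8-fold, adjusted p = 4.49e-09). Mafk, the other small Maf, stayed between 5.10 and 5.31 in the 4 untreated and 5.19 and 5.70 in the 6 LPS libraries. Its change was 0.13 ± 0.16 (adjusted p = 0.581) and 0.27 ± 0.16 (adjusted p = 0.88).

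**Figure D2:**
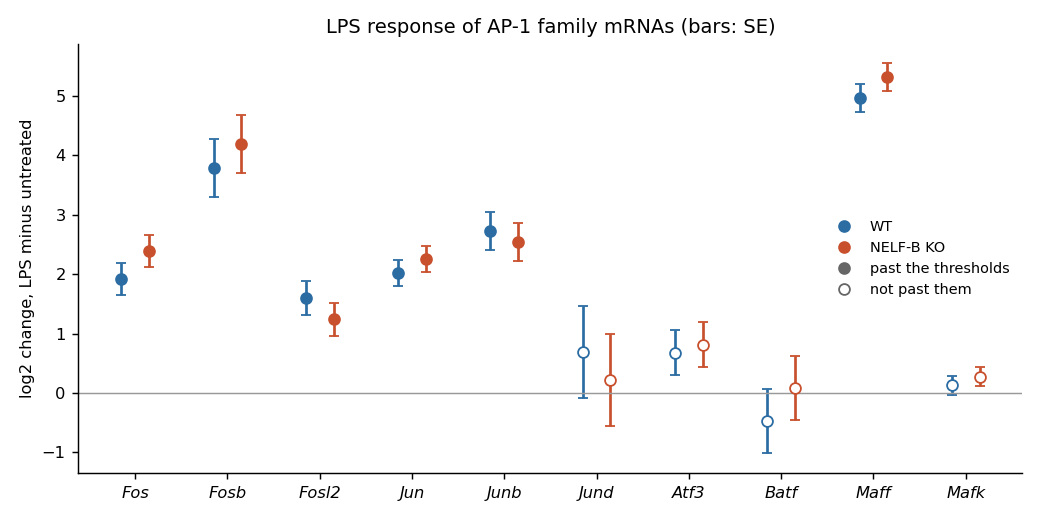
Log2 change with LPS (y axis, LPS minus untreated) of the 10 genes (x axis) in WT (blue) and NELF-B KO (orange) BMDM, with the SE of the limma fit of all 16 libraries. Filled points passed the thresholds, from 1.24 for Fosl2 in the KO to 5.32 for Maff in the KO, and open points did not.

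The LPS changes of WT and KO were also compared directly, as an interaction. Of the 10 genes 0 passed at an FDR under 0.05 in limma, 0 had an unadjusted p under 0.05, and 0 were called in voom on recovered reads (over all genes 0% were called, and 2.3% had an unadjusted p under 0.05). The difference for Fos was 0.47 (95% interval -0.36 to 1.3) and for Fosb 0.41 (-1.10 to 1.91). With the mouse as a replicate block these were 0.33 ± 0.13 (SE, limma, adjusted p = 0.414) and 0.11 ± 0.32 (adjusted p = 0.818), and 0 of the 10 genes passed. On the scale of log2(CPM + 1) the Fosb difference was 0.85 (adjusted p = 0.689).

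Adding Dex to LPS moved the family in both directions. In the same mice, Fos, Jun and Mafk were higher with LPS + Dex than with LPS in 6 of 6 (9.16% of all genes), and Fosb, Junb, Atf3 and Maff were lower in 6 of 6 (10.4% of all genes). With the mouse as a block, an FDR under 0.1 and more than 1.3-fold, limma called 2 of the 10 genes higher (Fos, Jun) and 2 lower (Fosb, Atf3) in the WT, beside 1.37% and 1.22% of all genes. In the KO it called 1 higher (Jun) and 2 lower (Fosb, Atf3), beside 1.57% and 1.45%. Their median log2 change was -0.22 for WT and -0.16 for KO mice, beside -0.01 and 0 for all genes. The LPS and Dex comparisons share the LPS libraries, so that a high value there raises one change and lowers the other. These calls rest on few mice. Without WT mouse C 0 of the 10 genes were called in the WT, and without KO mouse A, B or C 0 were called in the KO, while without WT mouse A or B 5 or 4 were called in the WT. Without the replicate block 0 were called in either genotype. The genes called without WT mouse A or B included every gene of the main WT fit. In the 12 LPS and LPS + Dex libraries alone, with the block, 5 were called in each genotype. They were the genes of the main fit with Junb in the WT, and with Junb and Mafk in the KO. Each gene of the main fit kept its change there, with a lower adjusted p.

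Fos was at 8.37, 9.06 and 8.60 log2 CPM with LPS + Dex in the WT, which is 0.50, 0.58 and 0.55 above the LPS library of the same mouse. The changes of the 3 mice lay within 0.08 of each other, and the fitted change was 0.54 ± 0.08 (SE, limma, adjusted p = 0.0108). In the KO mice Fos was at 9.28, 9.01 and 9.39, higher by 0.38, 0.35 and 0.28. This change of 0.34 ± 0.08 had an adjusted p of 0.0754 but was 1.26-fold, under the 1.3-fold limit. Every KO mouse changed less than every WT mouse, a pattern whose share over all genes was not counted. The difference between the genotypes was -0.20 (95% interval -0.46 to 0.05, limma, adjusted p = 1). Without WT mouse C, the WT change of Fos was 0.54 with an adjusted p of 0.105.

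Jun rose in both genotypes. It was at 7.91, 8.08 and 8.22 log2 CPM with LPS + Dex in the WT, above the same mouse's LPS library by 0.72, 0.41 and 0.44. In the KO it was at 8.47, 8.85 and 8.74, higher by 0.46, 0.80 and 0.36. The fitted changes were 0.52 ± 0.12 (limma, adjusted p = 0.0931) and 0.54 ± 0.12 (adjusted p = 0.0711), and without WT mouse C the WT value was 0.57 with an adjusted p of 0.367. Leaving out each KO mouse gave 0.41 to 0.63 in the KO, with adjusted p from 0.192 to 0.36.

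Fosb, the closest relative of Fos in the list, went the other way. It was at 0.98, 1.05 and 0.13 log2 CPM with LPS + Dex in the WT, with same-mouse changes of -0.73, -1.22 and -1.62. In the KO it was at 2.72, 1.51 and 2.23, with changes of -0.79, -1.12 and -1.39. All LPS + Dex libraries of the WT were below all its LPS libraries, a pattern whose share over all genes was not counted. By contrast, in the KO the highest LPS + Dex library (2.72) was above the lowest LPS library (2.63), from another mouse. The fitted changes were -1.19 ± 0.19 (limma, adjusted p = 0.0146) and -1.10 ± 0.19 (adjusted p = 0.0212). Without WT mouse C the WT value was -0.97 (adjusted p = 0.149), and leaving out each KO mouse gave KO values of -0.95 to -1.25 (adjusted p from 0.128 to 0.264).

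Atf3 fell in both genotypes. Its same-mouse changes were -0.96, -0.92 and -0.98 in the WT, to 6.96, 8.22 and 7.55 log2 CPM, and -0.81, -1.13 and -0.99 in the KO, to 7.32, 7.88 and 7.59. The LPS + Dex libraries of both genotypes lay around the untreated level of 7.57 to 7.96. The fitted changes were -0.95 ± 0.20 (limma, adjusted p = 0.0529) and -0.98 ± 0.20 (adjusted p = 0.0426), and without WT mouse C the WT value was -0.94 (adjusted p = 0.336). Leaving out each KO mouse gave KO values of -0.90 to -1.06 (adjusted p from 0.269 to 0.561).

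Junb was lower with Dex in 6 of 6 mice, but did not pass. Its same-mouse changes were -0.18, -0.83 and -0.56 in the WT and -0.26, -0.64 and -0.52 in the KO, smallest in mice A. The fitted changes were -0.52 ± 0.14 (limma, adjusted p = 0.172) and -0.47 ± 0.14 (adjusted p = 0.219). In the fit of the 12 LPS and LPS + Dex libraries both passed (adjusted p = 0.00217 and 0.00406), and without WT mouse A the WT value passed at -0.69 (adjusted p = 0.00276).

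Maff kept most of its LPS level, with same-mouse changes of -0.27 to -0.36 in the WT and -0.21 to -0.41 in the KO. The fitted values were -0.32 ± 0.12 (limma, adjusted p = 0.517) and -0.29 ± 0.12 (adjusted p = 0.605). Mafk had changes of 0.19 to 0.39 in the WT and 0.34 to 0.46 in the KO, fitted as 0.26 ± 0.11 (adjusted p = 0.623) and 0.40 ± 0.11 (adjusted p = 0.137). The KO value of Mafk passed in the fit of 12 libraries (adjusted p = 6.3e-05). Fosl2, Jund and Batf had same-mouse changes on both sides of 0, from -0.48 to 0.41, and limma adjusted p-values of 1 in both genotypes.

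**Figure D3:**
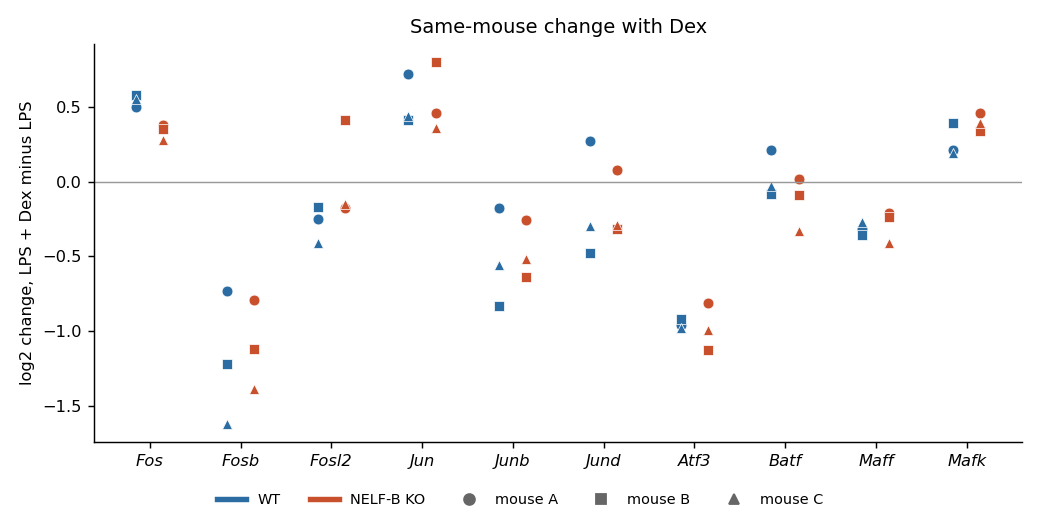
Log2 change (y axis, LPS + Dex minus LPS of the same mouse) of the 10 genes (x axis), 1 point per mouse, blue for WT and orange for NELF-B KO, with circles, squares and triangles for mice A, B and C. Points of Fos, Jun and Mafk lie above 0 in 6 of 6 mice and those of Fosb, Junb, Atf3 and Maff below 0 in 6 of 6.

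The Dex changes of WT and KO were compared directly as well. Of the 10 genes 0 passed in limma, 0 had an unadjusted p under 0.05, and 0 were called in voom on recovered reads, beside 0% of all genes called and 0.3% with an unadjusted p under 0.05. The 95% interval of the difference was -0.39 to 0.42 for Jun, -0.53 to 0.72 for Fosb and -0.67 to 0.62 for Atf3.

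KO was also compared with WT at each treatment. Of the 10 genes 0 passed an FDR under 0.05 with more than 1.5-fold in limma in untreated, LPS or LPS + Dex libraries, and 0% of all 9614 genes passed in each. Nelfb, the deleted gene, did not pass either, although its levels in the genotypes did not overlap. Its limma adjusted p was 0.889 untreated, 0.105 under LPS and 0.0889 under LPS + Dex. A gene that was not called here thus cannot be taken as independent of NELF-B. At an unadjusted p under 0.05 there were 2, 4 and 5 of the 10 genes, beside 0.4%, 8.4% and 11.3% of all genes. With voom on recovered reads 0 of the 10 passed at each treatment. The KO libraries were all above the WT libraries for Fosb, Fosl2, Junb and Jund in untreated cells (15.7% of all genes), for Fos, Fosb, Fosl2 and Jun under LPS (5.91%) and for Fosb, Fosl2 and Jun under LPS + Dex (8.93%). Fosb, Fosl2 and Jun were above under both LPS and LPS + Dex (3.77% of all genes), in libraries from the same 6 mice.

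Fosb had the largest genotype difference of the 10 genes under LPS and under LPS + Dex. The KO minus WT value was 1.34 ± 0.30 on the log2 scale under LPS (SE, limma, adjusted p = 0.254) and 1.44 ± 0.40 under LPS + Dex (adjusted p = 0.235). The WT libraries with LPS (1.70 to 2.28) lay in the range of the KO libraries with LPS + Dex (1.51 to 2.72). For Fos it was 0.76 ± 0.19 under LPS (adjusted p = 0.266) and 0.55 ± 0.19 under LPS + Dex (adjusted p = 0.345). For Fosl2 it was 0.42 ± 0.15 (adjusted p = 0.492, and 0.27 without WT mouse C) and 0.72 ± 0.26 (adjusted p = 0.36).

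Jun had a KO minus WT value of 0.60 ± 0.18 under LPS (limma, adjusted p = 0.355) and of 0.62 ± 0.13 under LPS + Dex (adjusted p = 0.195). With the mouse letter as a block, the Jun difference under LPS + Dex had an adjusted p of 0.0484 in limma, the only one of the 10 genes to pass. That block rests on the label tags for mice B and C, and pairs mice A only as the remaining mice. The values of Junb were 0.60 ± 0.28 under LPS (adjusted p = 0.665, and 0.34 without WT mouse A or 0.39 without KO mouse C), 0.65 ± 0.27 under LPS + Dex (adjusted p = 0.42) and 0.78 ± 0.25 in untreated cells (adjusted p = 0.889). In untreated cells Fos, Fosl2 and Junb passed only when the WT library of mouse B was left out (adjusted p = 0.0161, 0.0178 and 0.0149), which leaves the library that was unlike the rest as the only WT sample, assumed to vary as the KO pair does.

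Atf3, Batf, Maff and Mafk had genotype differences of -0.11 to 0.27 under LPS and LPS + Dex, with limma adjusted p-values of 0.515 to 0.995. The value of Jund was 0.41 ± 0.68 under LPS (adjusted p = 0.962), with the 95% interval from -1.20 to 2.01.

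Between mice of the same letter, KO was above WT in 8 of 8 pairs of libraries for Fosb, Fosl2, Jun and Junb (7.72% of all genes), and these pairs come from 3 pairs of mice. The labels of mice B and of mice C carry tags of the same kind in both genotypes (for WT mouse B only on its untreated library), whereas mice A are the remaining pair and share none. The size differed by letter. For Fosb the 3 differences of mice A were 1.75 to 1.81 and both of mice C 1.86 and 2.10, whereas those of mice B were 0.10, 0.36 and 0.46. For Fos the differences under LPS were 1.03, 0.18 and 1.06 in mice A, B and C. KO mouse B is the mouse with the most Nelfb left (4.21 to 4.38 log2 CPM), and under LPS it was the lowest KO mouse for Fos and Fosb. WT mouse B was in turn the highest WT mouse under LPS for Fos (8.48, against 7.87 and 8.05) and Fosb (2.28, against 1.70 and 1.76). The part of the remaining Nelfb and of the WT levels in the smaller differences was not tested. For Fosl2 under LPS + Dex the mice B differed most (0.97, against 0.40 in mice A and 0.78 in mice C).

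**Figure D4:**
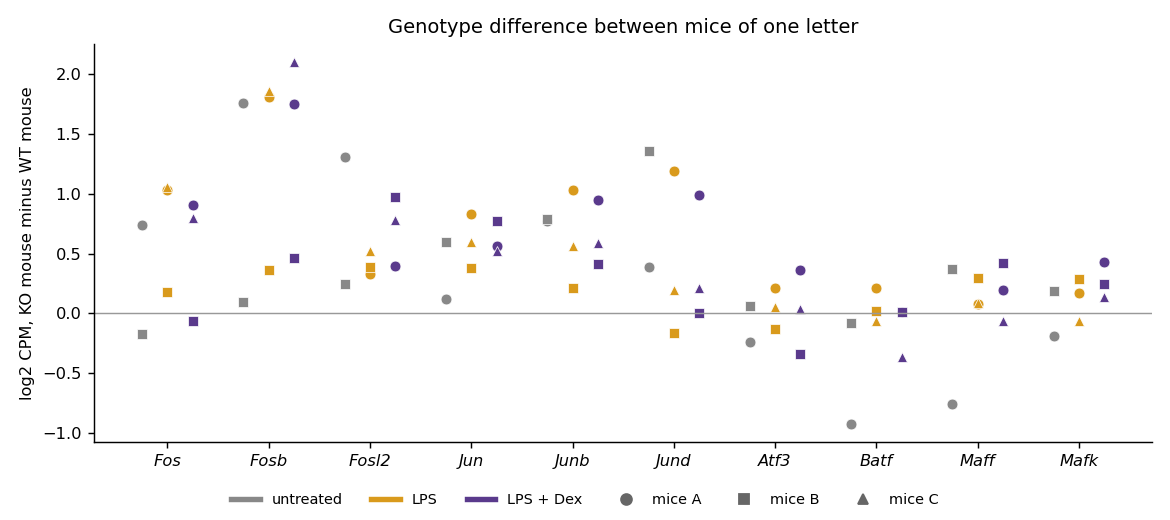
Log2 CPM of the KO mouse minus that of the WT mouse of the same letter (y axis) for the 10 genes (x axis), grey for untreated, yellow for LPS and purple for LPS + Dex, with circles, squares and triangles for mice A, B and C. Points of Fosb, Fosl2, Jun and Junb lie above 0 in 8 of 8 pairs, as for 7.72% of all genes, and the squares of Fosb (0.10 to 0.46) lie below its circles and triangles (1.75 to 2.10).

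Other genes of the pathway were counted in 4 lists. Of 24 other basic leucine zipper genes, 19 were in the table, and 4 rose and 1 fell with LPS in the WT and 2 rose in the KO, beside the shares of all genes given above. Jdp2, a Jun-binding repressor that competes at AP-1 sites, rose with LPS by 1.04 ± 0.18 (limma, adjusted p = 0.00218) in the WT and 1.20 ± 0.18 (adjusted p = 0.000774) in the KO. It was the only one of the 19 to change with Dex, and rose by a further 1.38 ± 0.08 (adjusted p = 8.3e-05) and 1.62 ± 0.08 (adjusted p = 2.19e-05), to means of 6.93 and 7.28 log2 CPM. Nfe2l2, which encodes the oxidative stress factor NRF2, rose by 0.92 ± 0.13 and 0.82 ± 0.13 with LPS (adjusted p = 0.000578 and 0.00159). Creb5 rose (1.54 ± 0.48, adjusted p = 0.073) and Ddit3 fell (-1.15 ± 0.34, adjusted p = 0.0661) with LPS in the WT, and without the WT untreated library of mouse A neither passed (0.46, adjusted p = 0.679, and -0.55, adjusted p = 0.607). Leaving out each of the 5 untreated and LPS libraries of the WT in turn, Creb5 did not pass in 4 and Ddit3 in 3.

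Among MAP kinase genes, whose kinases phosphorylate AP-1 proteins and the factors that induce them, 22 of 26 were in the table. With LPS 1 of the 22 rose in each genotype, beside 6.01% and 3.08% of all genes. It was Mapkapk2, which encodes the p38-activated kinase MK2 (0.93 ± 0.09, limma, adjusted p = 1.48e-05 in the WT, and 1.13 ± 0.09, adjusted p = 2.06e-06 in the KO). With Dex it was the only one of the 22 to fall, beside 1.22% and 1.45% of all genes (-0.39 ± 0.06, adjusted p = 0.0112, and -0.44 ± 0.06, adjusted p = 0.00488), and it did not pass without WT mouse C (adjusted p = 0.116) or, in the KO, without mouse A (adjusted p = 0.103) or B (adjusted p = 0.123). Tab1, which encodes a partner of the kinase TAK1, fell with LPS in the WT (-0.88 ± 0.15, adjusted p = 0.00213), and without the WT untreated library of mouse A it was -0.56, under 1.5-fold. A list of 9 genes held SRF and its partners, which drive Fos transcription through the serum response element, and also MEF2 genes. Of these 9, 0 were called with LPS. With Dex 1 of the 9 rose, Mkl1 in the KO, beside 1.57% of all genes (0.49 ± 0.12, adjusted p = 0.0846), and it did not pass without KO mouse A, B or C (0.30 to 0.60).

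Of 10 genes known as AP-1 targets, 9 were in the table, and LPS raised 4 of them in WT and 2 in KO mice, beside 6.01% and 3.08% of all genes. The 2 were Plaur, which encodes the urokinase receptor (1.33 ± 0.28, limma, adjusted p = 0.0123), and Plau, which encodes urokinase itself (1.76 ± 0.27, adjusted p = 0.00101). Without the untreated library of KO mouse B, Plaur was at 1.25 (adjusted p = 0.159). With Dex 0 rose and 2 fell in each genotype, beside 1.22% and 1.45% of all genes that fell. These were Plau (-1.85 ± 0.09, adjusted p = 3.86e-05 in the WT, and -2.21 ± 0.09, adjusted p = 1.42e-05 in the KO) and the collagenase gene Mmp13 (-0.93 ± 0.15, adjusted p = 0.0156, and -0.76 ± 0.15, adjusted p = 0.0404). The median Dex change of the 9 was -0.03 for WT and -0.04 for KO mice, beside -0.01 and 0.00 for all genes. Without KO mouse A, B or C the KO change of Mmp13 was -0.63 to -0.84 and did not pass, and without WT mouse C its WT change was -0.97 with an adjusted p of 0.116. Of the 4 lists, 0 genes were called between KO and WT at any treatment, in a comparison that did not call Nelfb either.

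The genes whose pattern was most like each member were found by Pearson's r over the 16 libraries among 9591 genes, as a description over libraries that share mice. Fos and Jun had the same pair, Cited2 (0.977 and 0.98) and Cd69 (0.977 and 0.971). Maff was closest to the chemokine gene Cxcl2 (0.995) and to Marcksl1 (0.993). Fosb was closest to Btg2 and Tgif1 (0.965 each), Fosl2 to Usp16 (0.973) and Nfe2l2 (0.96), and Junb to Plk3 (0.965) and 5430427O19Rik (0.962). Atf3 had the least close neighbours, Fam214b (0.892) and Neurl3 (0.872), followed by Mafk with Chka (0.925) and Dhx38 (0.896). Jund was closest to Unc50 (0.953) and Cox8a (0.95), and Batf to Marco (0.977), a scavenger receptor gene, and Ptp4a3 (0.972).

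Exons of 4 of the 10 genes overlap a gene on the opposite strand in the GENCODE annotation. Jun shares 232 bases with Junos, Junb 173 with Prdx2, Jund 543 with Gm11175 and Mafk 169 with Tmem184a. The sources used here do not state whether counting used the strand, so reads in these stretches cannot be told apart.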

How the data were processed

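RNA-seq of polyA RNA was read as 50 bp pairs. Per the study's methods, the authors aligned them to mm10 in CLC Bio Genomic Workbench, took unique reads on exons as counts, normalised these with edgeR (weighted trimmed mean) and deposited the result as log2 CPM for 9614 genes. The submitters' processing notes also name CASAVA 1.8 and FastQC. The deposited p-value and FDR columns hold the authors' own comparisons and were not used.

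The test planned for counts was replaced by limma 3.58.1 (R 4.3.3, lmFit and eBayes with trend) on the deposited log2 values, with no further filter or pseudocount and Benjamini-Hochberg adjustment over all genes. LPS was fitted on 16 libraries as 6 group means, Dex with the mouse as a block, and genotype on the libraries of 1 treatment. Other values were computed with Python 3.11.15, pandas 2.3.3, numpy 2.4.6 and scipy 1.17.1, and the fits were tested on simulated data. Depth was recovered from the step of the low values: 100% of those under 3 CPM were whole reads within 0.1. A depth of 3 reads is 0.0653 to 0.136 CPM, and such limits cover counting error only.

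Mouse numbers in the labels pair the libraries. Same-mouse LPS and LPS + Dex libraries deviated together from their group means (r over genes of 0.88, 0.94 and 0.94 in the WT and 0.78, 0.90 and 0.89 in the KO), as did untreated and LPS libraries (0.45 and 0.87). Each mouse is 1 replicate in the Dex and genotype fits. The main LPS fit and its interaction had no mouse block and took libraries of the same mouse as separate. Fits of LPS with the block are given as alternatives.

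The members and lists were chosen with earlier results of these data known. The text names all 10 members and Nelfb, in each list at most 3 called genes per direction and comparison, and for each member the 2 genes of highest r with a mean above 1 log2 CPM. Positions, exon lengths and overlaps are from GENCODE vM21 (GRCm38, as mm10).

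Alternatives were the replicate block or none, fewer libraries, a filter on mean log2 CPM above 1, log2(CPM + 1), centring on the median gene, voom on recovered reads, unadjusted thresholds and leaving out each library or mouse. A fit of the untreated and LPS libraries of mice A and B with the block was added after seeing the data.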

Additional observations from a re-analysis of the deposited data

How the results depend on the processing

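The 6 members called with LPS in each genotype were called under every alternative in the WT, and in the KO under every one but 2, the fit of the untreated and LPS libraries of mice A and B with a replicate block (5, Fosl2 at 1.33 lost) and the one without the untreated library of KO mouse B. The calls with Dex depend on the replicate block: without it 0 members were called in the WT and 0 in the KO, and in the 12 LPS and LPS + Dex libraries with it 5 were called in the KO. Leaving out each mouse gave 0 to 5 members with Dex in the WT and 0 to 0 in the KO. For KO minus WT, unadjusted thresholds gave 2 members untreated, 3 under LPS and 4 under LPS + Dex, the block on mouse letters 1 under LPS + Dex, and leaving out each untreated library 0 to 3. Over all genes, the alternatives called 226 to 2008 with LPS in the WT (880 as reported) and 4478 without the untreated library of WT mouse B, 220 to 592 in the KO (415), and with Dex 95 to 438 in the WT (249) and 123 to 511 in the KO (290, and 78 to 146 without a KO mouse). For KO minus WT, reported as 0, they called up to 37 untreated, 339 under LPS and 361 under LPS + Dex. These alternatives include the unadjusted thresholds, so that the upper ends are not all counts at an FDR. Untreated, 37 is also the number of all genes with an unadjusted p under 0.05 in limma. At that p alone, the shares of all genes were 0.4% untreated, 8.4% under LPS and 11.3% under LPS + Dex. The causes were not tested. Of the members' values that were not called, several changed sign. With LPS in the KO, Jund was -0.31 with the replicate block and -0.34 in mice A and B alone. The Fosb genotype difference in the Dex change was -0.10 with log2(CPM + 1). Mafk, at 0.00 for KO minus WT untreated, stayed at 0.00 with log2(CPM + 1), 0.00 with centring and 0.00 with voom, and was -0.05 with a random replicate block. Leaving out 1 library or mouse gave these ranges: with LPS in the KO, Jund -0.34 to 0.66 and Batf -0.54 to 0.70; with Dex, Batf in the WT -0.06 to 0.09 and Fosl2 in the KO -0.17 to 0.13. For KO minus WT untreated they were Fos -0.17 to 0.74, Atf3 -0.29 to 0.11, Batf -1.12 to 0.12, Maff -0.63 to 0.24 and Mafk -0.10 to 0.10. Under LPS they were Jund -0.15 to 1.07, Atf3 -0.26 to 0.35 and Batf -0.31 to 0.44, and under LPS + Dex Jund -0.10 to 1.00, Atf3 -0.29 to 0.34 and Batf -0.50 to 0.21. For the genotype difference in the LPS response they were Fosb -0.33 to 1.15, Jun -0.11 to 0.60, Junb -0.44 to 0.05, Jund -1.03 to 0.20, Atf3 -0.17 to 0.44, Batf -0.06 to 1.17 and Maff -0.08 to 0.79. For that in the Dex change they were Fosb -0.12 to 0.33, Jun -0.11 to 0.11, Junb -0.10 to 0.22, Jund -0.16 to 0.21, Atf3 -0.11 to 0.05 and Maff -0.01 to 0.09. Depth limits mainly untreated Fosb, at 0.25 to 0.87 CPM.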
